A study of Mus musculus with 12 samples.

Results

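Nfkb1, Nfkb2, Rel, Rela and Relb encode the 5 subunits of the transcription factor NF-kB, and Nfkbia, Nfkbie, Nfkbiz, Tnfaip3 and Tnip1 encode proteins that restrain or steer it. These 10 genes were taken by name for their place in the pathway, with earlier results of these data known. All 10 were among the 12866 genes with a value and among the 11509 genes tested. Expression was measured by sequencing total RNA, depleted of ribosomal RNA, from hearts of wild-type C57BL/6 mice in 12 libraries, 4 per group. Control mice were given saline for both treatments, LPS mice lipopolysaccharide at 10 mg/kg with saline, and LPS+XJDHT mice lipopolysaccharide at 10 mg/kg with XJDHT at 50 mg/kg per day, each over 3 days. Lipopolysaccharide is the endotoxin of Gram-negative bacteria, and XJDHT is an herbal decoction of Chinese medicine. The age of the mice is not given in the sources used here, and all 3 groups share strain and genotype. Libraries are numbered 1 to 4 within a group only as names. The labels do not say whether libraries of a group came from separate animals, so the p-values measure the spread between these libraries.

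In resting cells, dimers of the Rel-family subunits are held inactive by inhibitory I-kB proteins. Toll-like receptors, of which one recognises lipopolysaccharide, and receptors for tumour necrosis factor and interleukin-1 activate I-kB kinases, the I-kB protein is degraded, and the freed dimer enters the nucleus. Many I-kB genes, the ubiquitin-editing enzyme A20 (Tnfaip3) and several subunit genes are textbook targets of NF-kB itself, which makes the pathway a feedback loop. A separate branch, the non-canonical pathway, acts through processing of the Nfkb2 product and its partner RelB.

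Expression is given as FPKM, a count of sequenced fragments corrected for transcript length and library size. It is summed over the annotated transcripts of a gene that are listed for all 12 libraries. The libraries rest on 73.8 to 77.8 M fragments (M, mega), as recovered from the spacing of the values. Nfkbia was covered by 2327.5 to 10957.8 fragments per library and Nfkbie by 30.2 to 504.5, while Tnfaip3 rested on 25 in Control 4. Relb and Nfkbiz had none from the summed transcripts in the libraries where their sum is 0. For Relb this does not mean that no fragments were sequenced. Relb-202, a transcript left out of the sum, was above 0 in Control 1, 2 and 3 and LPS 3. Fold changes are log2 differences of (FPKM + 1) with their standard error from limma, fitted to all 11509 genes. A gene is said to have risen or fallen where the Benjamini-Hochberg adjusted p was below 0.05.

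The windows just upstream of the genes are printed because several members are textbook NF-kB targets and 8 of the 10 genes rose after LPS. That of Nfkbie, which did not pass the test, is shown for comparison. RefSeq promoters of build GRCm38.p6 were matched for 7 of the 10 genes, with 10 start sites in all, and the 250 bases before each start were searched on both strands. Nfkb1, Relb and Nfkbiz had no entry. The motifs were the 10-letter NF-kB consensus and the 9-letter GGNNNTTCC, which overlap each other. In the lines that follow, capitals mark letters matched by either motif, and each window is written 5′ to 3′ on the gene's strand.
Nfkbia, chr12:55492648-55492897, minus strand: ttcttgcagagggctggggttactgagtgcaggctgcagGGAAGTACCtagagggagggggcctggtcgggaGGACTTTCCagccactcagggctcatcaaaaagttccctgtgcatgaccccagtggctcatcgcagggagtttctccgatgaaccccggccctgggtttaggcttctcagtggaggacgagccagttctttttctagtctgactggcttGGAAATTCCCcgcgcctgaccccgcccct
Tnip1, chr11:54962941-54963190, minus strand: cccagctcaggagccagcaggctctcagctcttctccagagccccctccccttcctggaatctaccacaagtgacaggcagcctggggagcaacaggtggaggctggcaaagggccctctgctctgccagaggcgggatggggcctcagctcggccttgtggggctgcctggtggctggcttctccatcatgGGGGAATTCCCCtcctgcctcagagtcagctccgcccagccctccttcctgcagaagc
Rel, chr11:23770970-23771219, minus strand: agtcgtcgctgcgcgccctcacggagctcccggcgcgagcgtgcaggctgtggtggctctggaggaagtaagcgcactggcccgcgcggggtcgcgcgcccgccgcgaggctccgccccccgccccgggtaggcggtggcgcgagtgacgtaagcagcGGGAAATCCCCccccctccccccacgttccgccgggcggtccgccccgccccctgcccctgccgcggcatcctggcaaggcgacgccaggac
Tnfaip3, start of Tnfaip3-202, chr10:19011964-19012213, minus strand: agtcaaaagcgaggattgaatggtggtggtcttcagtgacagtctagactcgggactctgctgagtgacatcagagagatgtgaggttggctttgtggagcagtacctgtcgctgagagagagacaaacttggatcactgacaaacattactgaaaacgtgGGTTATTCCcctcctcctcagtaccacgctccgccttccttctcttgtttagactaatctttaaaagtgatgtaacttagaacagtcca
Nfkbie, chr17:45555450-45555699, plus strand: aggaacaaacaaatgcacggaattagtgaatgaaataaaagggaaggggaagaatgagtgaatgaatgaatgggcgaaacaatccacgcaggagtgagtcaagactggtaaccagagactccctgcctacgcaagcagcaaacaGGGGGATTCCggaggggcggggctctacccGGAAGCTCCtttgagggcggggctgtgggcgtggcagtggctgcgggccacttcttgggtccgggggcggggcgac

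The Nfkbia window holds 3 separate stretches, of which the one nearest the start, GGAAATTCCC, matches the consensus on the reverse strand at 29 to 20 bases before the start. The Tnip1 window holds a single cluster, with GGGGAATTCC at 58 to 49 bases and overlapping matches on the other strand. Of the windows that overlap annotated exons, that of Nfkb2-201 has GGGAATTCCC at 39 to 30 bases and GGGGCTTTCC at 11 to 2 bases before its start. The window of Tnfaip3-201 has GGAAATCCCC at 12 to 3 bases and GGGACACCCC at 125 to 116 bases, whereas the window of Tnfaip3-202 matches only GGNNNTTCC, with GGTTATTCC at 89 to 81 bases. The consensus was present in 8 of the 10 windows (80%), against 3.90% of the 32851 promoters of all genes. GGNNNTTCC was present in 9 of the 10 (90%), against 15.7% of all promoters. The 10 windows belong to 7 genes, 6 of which had a match of the consensus, and windows of the same gene are not independent. As the genes were chosen for their place in the pathway, these shares are a description only. The Rela window held neither, which says only that these letters are not in that window. A match is a description of the letters and was not tested as a binding site.

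After LPS, 8 of the 10 genes rose and 0 fell, and in 7 every LPS library lay above every Control library. Over all genes tested, 26.6% rose, 12% fell and 25.3% lay wholly above Control. The median fold change of the 10 genes was 1.45 on the log2 scale, against 0.16 over all genes. As the 10 genes were chosen with earlier results of these data known, these contrasts with all genes are a description only. The genes that rose were the subunits Nfkb2, Relb, Rel and Rela, the I-kB genes Nfkbia and Nfkbiz, and Tnfaip3 and Tnip1. Nfkb1 and Nfkbie did not pass the test. Tnfaip3, Nfkbie, Relb and Nfkbiz reached the filter of 1 FPKM in 4 libraries only with the groups given LPS, since 0, 0, 1 and 2 Control libraries were at that level. A gene that low in Control enters the test only if other groups are higher, and with no filter the count was again 8. Dividing each library by its median ratio over all genes moved that 0.16 to 0.01 and changed the split over all genes from 3063 higher and 1384 lower to 2145 and 2112. Under this scaling 7 of the 10 genes still rose, with Rela the exception.

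**Figure D1:**
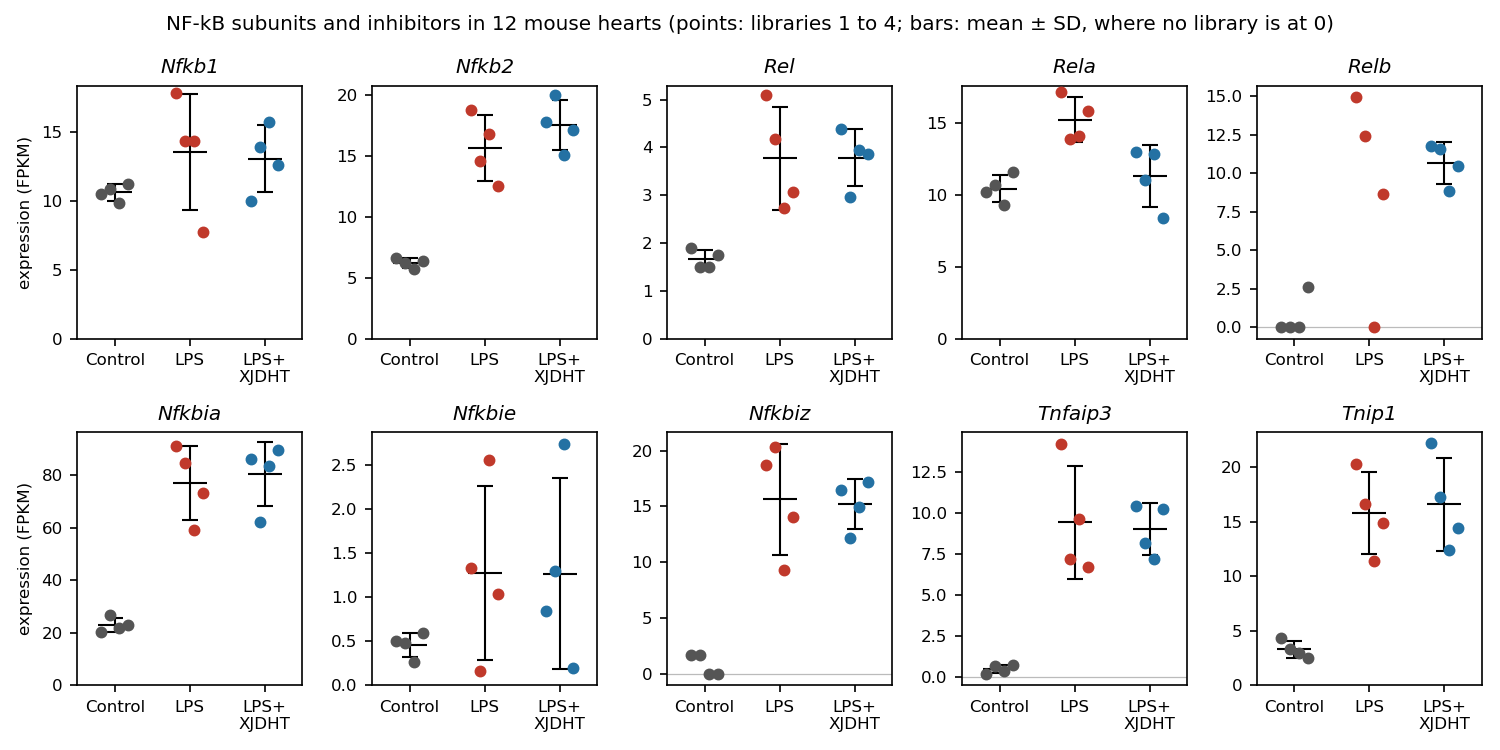
Expression in FPKM (vertical axes, a separate scale for each gene) of the 10 genes in the 4 Control, 4 LPS and 4 LPS+XJDHT libraries. Points are libraries, with mean ± SD where no library of the group is at 0; Nfkbia, Nfkb2, Tnip1, Tnfaip3, Rel and Nfkbiz stand above Control in every LPS and LPS+XJDHT library.

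Among the subunits, Nfkb2 moved most clearly. Nfkb2 encodes p100, which traps RelB as an I-kB-like protein until it is processed to p52, and lies at chromosome 19, 46304320 to 46312385, plus strand, in GRCm38. Its level was 6.58, 6.16, 5.69 and 6.40 FPKM in Control 1 to 4, 18.7, 14.6, 16.8 and 12.5 in LPS 1 to 4, and 17.8, 20.02, 15.1 and 17.1 in LPS+XJDHT 1 to 4. Every library given LPS lay above every Control library, while the LPS and LPS+XJDHT libraries overlapped. The rise after LPS was 1.20 ± 0.13 on the log2 scale (limma adjusted p = 3.5e-05).

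Relb encodes the activating subunit of the non-canonical pathway (chromosome 7, 19606217 to 19629438, minus strand). Summed over transcripts listed for all libraries, Relb was listed at 0 in Control 1, 2 and 3 and at 2.60 FPKM in Control 4. In LPS 1 to 4 it was 14.9, 12.4, 0 and 8.64 FPKM, and in LPS+XJDHT 1 to 4 it was 11.8, 11.6, 8.84 and 10.4. LPS 3 thus fell inside the Control range, and the 4 LPS+XJDHT libraries lay above all Controls. This sum leaves out Relb-202, which is listed for Control and LPS alone and encodes 558 residues against 555 for Relb-201. Relb-202 was 0.714, 2.08, 2.47 and 0 FPKM in Control 1 to 4 and 1.26 FPKM in LPS 3, and was listed at 0 in the other LPS libraries. With every listed transcript summed, Control lay between 0.714 and 2.60 FPKM and LPS 3 at 1.26 FPKM, still within it. The fitted rise after LPS was 2.29 ± 0.76 (limma adjusted p = 0.0317), or 1.54 with every listed transcript (adjusted p = 0.0307). Its size also depends on the libraries listed at 0: it was 3.21 without LPS 3, 3.97 with a pseudocount of 0.1 and 6.56 with limma-voom. This is the least secure call of the 8: the adjusted p was above 0.05 in 9 alternatives and below it in 12. Leaving out Control 1, 2 or 3 or LPS 1, 2 or 4 was enough to lose it, and the adjusted p ranged from 0.00018 without LPS 3 to 0.44 with limma-voom.

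Rel encodes c-Rel, a subunit best known from lymphoid and myeloid cells (chromosome 11, 23736847 to 23770970, minus strand). On average it was the least abundant subunit after LPS. Its level was 1.90, 1.50, 1.50 and 1.76 FPKM in Control 1 to 4, 5.10, 4.18, 2.73 and 3.08 in LPS 1 to 4, and 4.38, 2.96, 3.94 and 3.85 in LPS+XJDHT 1 to 4. All 8 libraries given LPS exceeded all Controls, and the rise after LPS was 0.82 ± 0.16 (limma adjusted p = 0.0023). With a filter of 5 FPKM in place of 1, Rel was not tested.

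Rela encodes p65, the main transactivating subunit of the canonical dimer (chromosome 19, 5637483 to 5648130, plus strand). Its level was 10.2, 10.7, 9.32 and 11.6 FPKM in Control 1 to 4, 17.1, 13.9, 14.1 and 15.8 in LPS 1 to 4, and 13.0, 11.0, 12.8 and 8.39 in LPS+XJDHT 1 to 4. The LPS libraries were the highest of the 12, with no overlap with either other group, while LPS+XJDHT overlapped Control. Rela rose after LPS by 0.50 ± 0.13 (limma adjusted p = 0.0116). With median-ratio scaling the rise was 0.32 and the adjusted p 0.0544, within a range of 0.0040 to 0.0544 over the alternatives.

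Nfkb1 encodes p105, the precursor of the p50 subunit and itself an I-kB-like protein (chromosome 3, 135584655 to 135691547, minus strand). Its level was 10.5, 10.8, 9.82 and 11.2 FPKM in Control 1 to 4, 17.8, 14.3, 14.3 and 7.71 in LPS 1 to 4, and 10.0, 13.9, 15.7 and 12.6 in LPS+XJDHT 1 to 4. LPS 4 was the lowest of all 12 libraries and the other LPS libraries lay above every Control. The difference between LPS and Control was 0.27 ± 0.21 (limma adjusted p = 0.327). Without LPS 4 it was 0.50, with an adjusted p of 0.0204, against 0.125 to 0.766 in the other alternatives.

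Nfkbia was the most abundant of the 10 genes in every library. It encodes I-kB alpha, the inhibitor that is degraded on activation and resynthesised as the best-known negative feedback of the pathway (chromosome 12, 55489410 to 55492647, minus strand). Its level was 20.3, 26.6, 21.5 and 22.9 FPKM in Control 1 to 4, 91.2, 84.8, 59.0 and 73.4 in LPS 1 to 4, and 86.2, 62.3, 83.4 and 89.6 in LPS+XJDHT 1 to 4. The lowest library given LPS, LPS 3 at 59.0 FPKM, lay far above the highest Control library at 26.6 FPKM. The rise after LPS was 1.70 ± 0.15 (limma adjusted p = 1.0e-05).

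Nfkbiz encodes I-kB zeta, a nuclear member of the family that acts as a cofactor at a subset of NF-kB target genes, among them the lipocalin and interleukin-6 genes (chromosome 16, 55811375 to 55838899, minus strand). It was 1.63 and 1.69 FPKM in Control 1 and 2 and was listed at 0 in Control 3 and 4. It was 18.7, 20.4, 9.34 and 14.0 FPKM in LPS 1 to 4, and 16.5, 12.2, 15.0 and 17.2 in LPS+XJDHT 1 to 4. No library given LPS came near the Control range. The fitted rise after LPS was the largest of the 10 genes, at 3.30 ± 0.36 (limma adjusted p = 3.9e-05). With pseudocounts of 0.5 and 0.1 it was 3.90 and 5.17, and with limma-voom 8.15.

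Nfkbie encodes I-kB epsilon, a delayed inhibitor of the canonical dimers (chromosome 17, 45555703 to 45563169, plus strand). It was the least abundant of the 10 genes after LPS. Its level was 0.504, 0.473, 0.260 and 0.588 FPKM in Control 1 to 4, 1.33, 0.161, 2.56 and 1.04 in LPS 1 to 4, and 0.840, 1.29, 2.74 and 0.196 in LPS+XJDHT 1 to 4. LPS 2 and LPS+XJDHT 4 lay below every Control library and the other libraries given LPS above. The difference between LPS and Control was 0.54 ± 0.36 with a 95% interval of -0.25 to 1.33 (limma adjusted p = 0.266). It entered the test through 5 libraries at or above 1 FPKM, none of them a Control.

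Tnfaip3 and Tnip1 form the ubiquitin arm of the feedback. Tnfaip3 encodes A20, which edits and binds ubiquitin chains on signalling proteins upstream of the I-kB kinases (chromosome 10, 19000910 to 19015657, minus strand). Its level was 0.192, 0.680, 0.349 and 0.709 FPKM in Control 1 to 4, 14.2, 7.19, 9.64 and 6.71 in LPS 1 to 4, and 10.4, 8.20, 7.22 and 10.3 in LPS+XJDHT 1 to 4. LPS 1 stood highest, and the groups given LPS were clear of Control. The rise after LPS was 2.78 ± 0.22 (limma adjusted p = 4.0e-06). It was 4.09 with a pseudocount of 0.1 and 4.99 with limma-voom, and no Control library reached the 1 FPKM of the filter.

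Tnip1 encodes ABIN1, a ubiquitin-binding partner of A20 (chromosome 11, 54910785 to 54962917, minus strand). Its level was 4.34, 3.29, 2.98 and 2.46 FPKM in Control 1 to 4, 20.3, 16.6, 11.4 and 14.8 in LPS 1 to 4, and 22.2, 17.3, 12.4 and 14.4 in LPS+XJDHT 1 to 4. The groups given LPS overlapped each other and not Control. The rise after LPS was 1.97 ± 0.21 (limma adjusted p = 3.3e-05).

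The order of the genes by level differed between the groups. In Control, Nfkbia stood first at 22.8 ± 2.72 FPKM (SD, n = 4), followed by Nfkb1 at 10.6 ± 0.597 and Rela at 10.4 ± 0.936, which did not differ beyond their spread, and then by Nfkb2 at 6.21 ± 0.382. Tnfaip3 and Nfkbie, at 0.483 ± 0.254 and 0.456 ± 0.139 FPKM, were at the bottom of the list in Control with overlapping ranges. After LPS, Tnip1 at 15.8 ± 3.72 FPKM, Nfkb2 at 15.7 ± 2.70, Nfkbiz at 15.6 ± 4.98 and Rela at 15.2 ± 1.55 followed Nfkbia and lay within each other's spread. Tnfaip3, at 9.44 ± 3.44 FPKM, was above Rel at 3.77 ± 1.08 in every LPS library.

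The summed mRNA of the 5 subunits was 26.3 to 33.5 FPKM in Control, 47.8 to 73.7 in LPS and 52.4 to 59.4 in LPS+XJDHT. Its make-up differed as well. Rela held 34.5% to 36.6% of the sum in Control, 23.3% to 33.2% in LPS and 16.0% to 22.8% in LPS+XJDHT. With every listed transcript summed, Relb-202 included, the share of Rela was 31.3% to 34.0% in Control and 23.0% to 33.1% in LPS, so that these 2 groups overlapped, while LPS+XJDHT stayed below both. Nfkb2 held 19.1% to 22.6% in Control, 24.6% to 35.1% in LPS and 26.7% to 33.7% in LPS+XJDHT. The share of Nfkb1 was 33.4% to 37.3% in Control and 16.1% to 29.9% in LPS. The ratio of Nfkbia to Rela mRNA was 1.98 to 2.49 in Control, 4.19 to 6.12 in LPS and 5.66 to 10.7 in LPS+XJDHT. LPS+XJDHT 4 set the upper end of that last range, with the highest Nfkbia and the lowest Rela of its group, and the other 3 libraries of the group lay between 5.66 and 6.64. These shares and ratios were formed from the values above and were not tested. The sums include forms annotated as retained-intron, which have no annotated protein. Such forms made up 94.1% of Nfkb1 in Control 3, 26.1% to 41.6% in the other Controls and 5.53% to 37.3% in LPS. They also made up as much as 34.3% of Relb, in LPS+XJDHT 1. The shares therefore do not describe protein-coding mRNA alone.

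**Figure D2:**
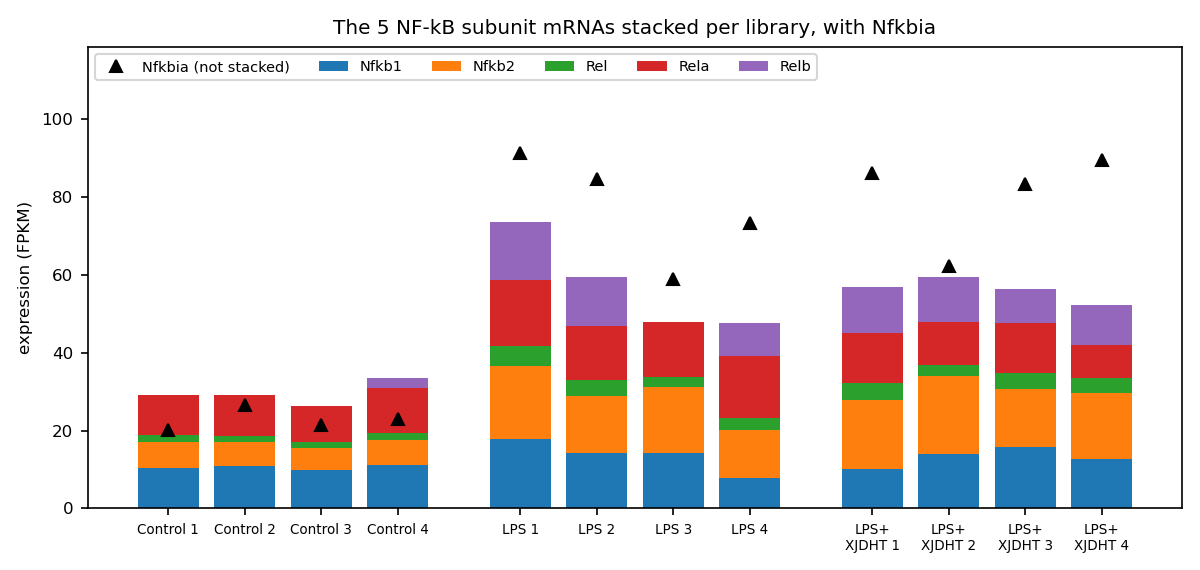
Stacked bars give the FPKM of the 5 subunit genes in each of the 12 libraries, and triangles the FPKM of Nfkbia in the same library. The stack reaches 26.3 to 33.5 FPKM in Control and 47.8 to 73.7 in LPS. Nfkbia lies below the top of the stack in every Control library and above it in every library given LPS. No Relb is drawn for Control 1, 2 and 3 and LPS 3, where its sum without Relb-202 is 0.

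The files give values per transcript, which shows which forms carried the changes. Of the transcripts of the 10 genes, 23 were listed for all 12 libraries and 19 were tested among 18644. After LPS, 13 of the 19 rose and 0 fell, against 17.3% rising and 8.26% falling among all transcripts tested. The count is a description, since forms of the same gene are counted apart. Tnfaip3-202, Nfkbiz-203 and Relb-206 were listed at 0 in all 4 Controls, and Tnfaip3-201 reached at most 0.680 FPKM there. These forms reached the filter only with the groups given LPS, so their rise is no separate evidence. With reads assigned among overlapping forms by the authors' method, the split within a gene is less certain than its sum.

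Tnfaip3 was listed mainly through Tnfaip3-201 and Tnfaip3-202, which start at different sites and share all coding exons for a protein of 775 residues. Tnfaip3-202 was listed at 0 in all 4 Controls, at 9.48, 2.79, 3.55 and 4.99 FPKM in LPS 1 to 4, and at 7.29, 4.19, 5.88 and 8.15 in LPS+XJDHT 1 to 4. Tnfaip3-201 was 0.192, 0.680, 0.349 and 0 FPKM in Control 1 to 4 and between 1.01 and 3.71 in the LPS libraries. Both forms rose after LPS, with fold changes of 2.52 ± 0.29 for Tnfaip3-202 (limma adjusted p = 0.00014) and 1.47 ± 0.30 for Tnfaip3-201 (limma adjusted p = 0.0045). The start of Tnfaip3-202, whose window is printed above, was listed above 0 only in libraries given LPS.

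Nfkbiz was carried by Nfkbiz-204, which encodes 728 residues and begins at the downstream start. It was listed at 0 in Control 3 and 4 and reached 17.1, 19.2, 8.68 and 13.1 FPKM in LPS 1 to 4. Nfkbiz-203, the form of 629 residues, was listed at 0 in all 4 Controls and at 1.66, 1.19, 0.662 and 0.985 FPKM in LPS 1 to 4. It too rose, by 1.07 ± 0.22 (limma adjusted p = 0.0051).

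Tnip1 rose through both Tnip1-201 and Tnip1-205, which encode 647 and 594 residues. Tnip1-201 was 0.938 to 1.51 FPKM in Control and 17.1, 11.5, 6.40 and 8.24 in LPS 1 to 4, a rise of 2.35 ± 0.29 (limma adjusted p = 0.00022). Tnip1-205 was 0.842 to 1.66 FPKM in Control and 2.61, 4.54, 4.35 and 6.08 in LPS 1 to 4, a rise of 1.32 ± 0.24 (limma adjusted p = 0.0025). Tnip1-206, which has the same coding exons as Tnip1-201, reached 6.60 FPKM in LPS+XJDHT 2 and at most 1.99 FPKM in any other library. As a share of Tnip1 it was 38.2% in LPS+XJDHT 2, 45.8% in Control 1 and 26.5% in Control 3. In every other library it was at most 0.741%. The gene sum of LPS+XJDHT 2 did not stand apart.

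For Nfkb1, whose sum did not pass the test, the forms behaved differently. Nfkb1-203, annotated with 533 residues from the 3′ part of the gene, was 1.64, 1.61, 0 and 1.26 FPKM in Control 1 to 4 and 4.51, 4.34, 3.75 and 2.13 in LPS 1 to 4. It rose by 1.20 ± 0.31 (limma adjusted p = 0.0144). Nfkb1-201, a form of 971 residues, was 5.20, 4.30, 0.200 and 4.48 FPKM in Control 1 to 4 and 6.81, 8.37, 0.662 and 3.48 in LPS 1 to 4, with a difference of 0.33 ± 0.59 (limma adjusted p = 0.726). Control 3 and LPS 3 stood apart with little Nfkb1-201. Nfkb1-206, which shares all coding exons with Nfkb1-201, was 0.376 FPKM in Control 3 but 4.56 FPKM in LPS 3, its highest library. LPS 3 was thus low in Nfkb1-201 and not in the coding sequence of 971 residues. In Control 3 the retained-intron forms made up 94.1% of Nfkb1, against 26.1% to 41.6% in the other Controls and 5.53% to 37.3% in LPS. The plot of transcripts by library shows this beside the other genes.

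Relb and Nfkb2 complete the picture. Relb-206, an annotated retained-intron form, was listed at 0 in all 4 Controls and in LPS 3, and at 2.41, 2.96 and 2.57 FPKM in LPS 1, 2 and 4. It rose by 1.40 ± 0.38 (limma adjusted p = 0.0207). Nfkb2-201 and Nfkb2-202, which begin at different starts and share all coding exons, both rose, by 1.19 ± 0.18 (limma adjusted p = 0.00077) and 0.84 ± 0.23 (limma adjusted p = 0.0184).

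**Figure D3:**
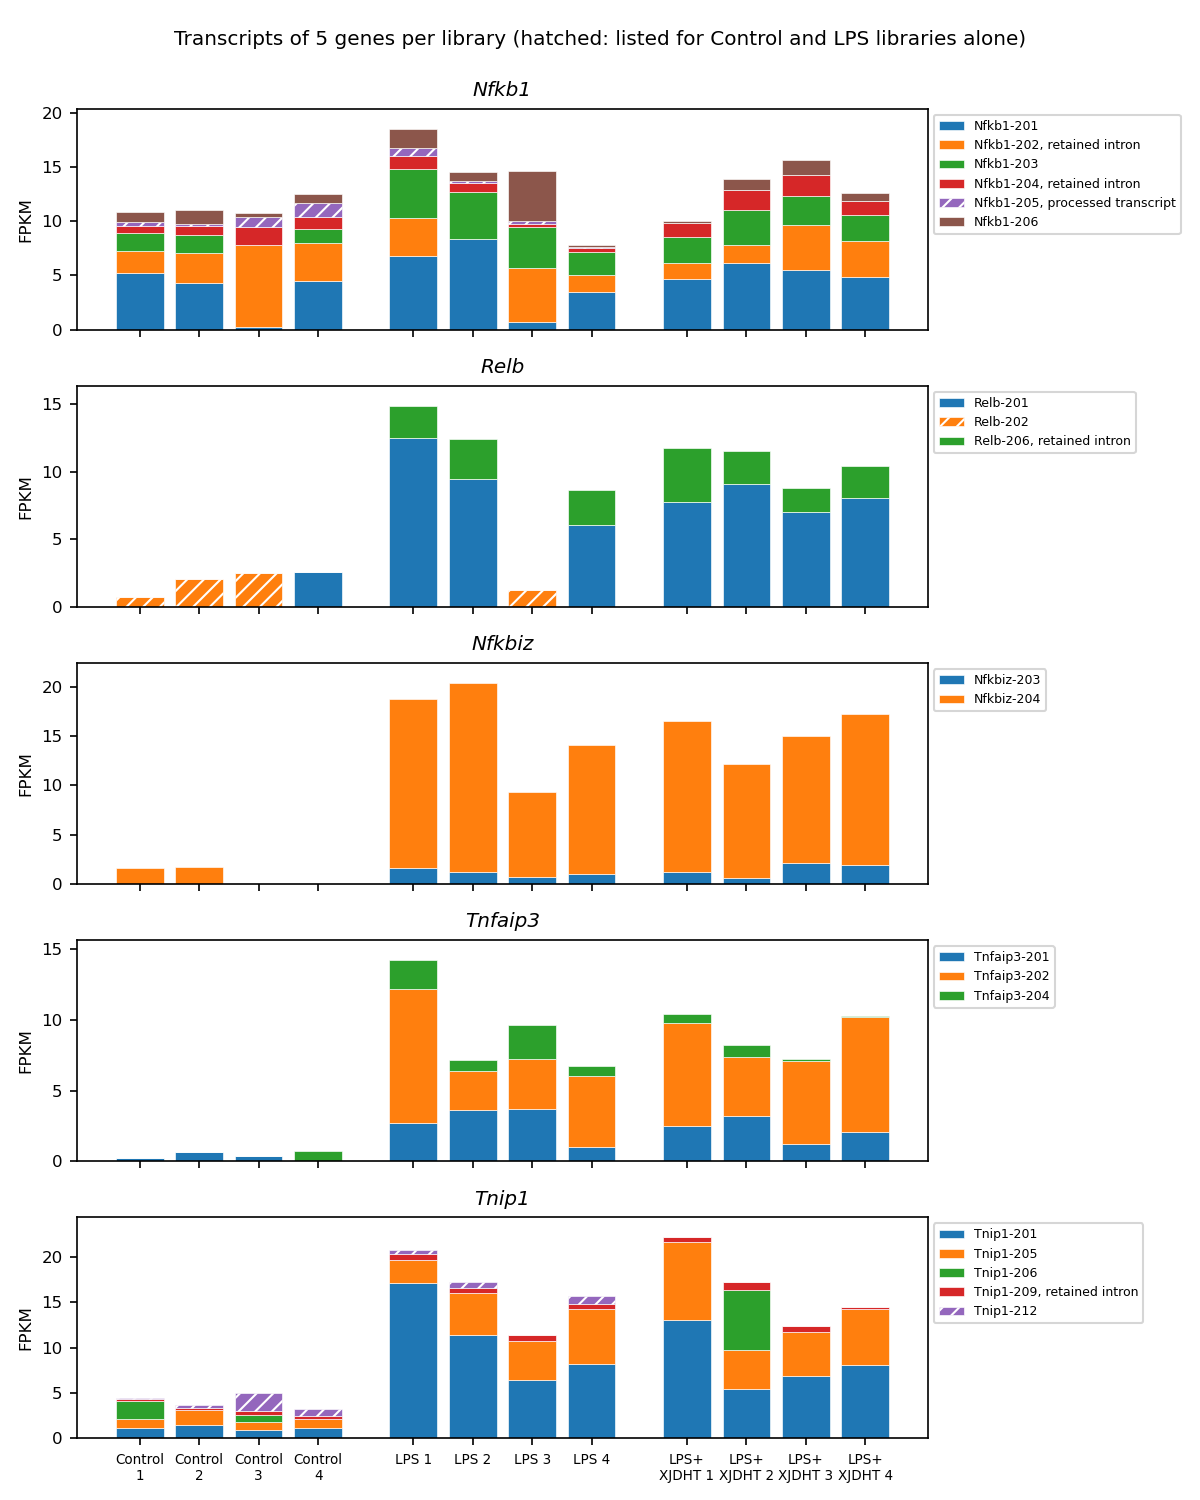
Stacked bars give FPKM per transcript in each library for Nfkb1, Relb, Nfkbiz, Tnfaip3 and Tnip1, with hatching for 3 transcripts listed for Control and LPS alone. Tnfaip3-202 and Nfkbiz-203 are absent from all 4 Controls, Control 3 and LPS 3 hold little Nfkb1-201, and LPS+XJDHT 2 alone has a tall segment of Tnip1-206.

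Whether the decoction changed the response is asked by setting LPS+XJDHT against LPS. None of the 10 genes passed the test: 0 rose and 0 fell by limma (smallest adjusted p = 0.963), and limma-voom on recovered fragments also called 0. Over all genes tested, 0% rose and 0.113% fell. One of the 10, Rela, had an unadjusted limma p below 0.05, against 4.79% of all genes. Rela was 0.41 lower in LPS+XJDHT than in LPS on the log2 scale, with a 95% interval of -0.71 to -0.12 (limma adjusted p = 0.963). Its 4 LPS+XJDHT libraries, at 8.39 to 13.0 FPKM, lay below its 4 LPS libraries, at 13.9 to 17.1 FPKM, a pattern found in 0.86% of all genes tested. In 0 of the 10 genes did all LPS+XJDHT libraries lie above all LPS libraries, against 1.95% of all genes.

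For the other 9 genes the intervals bound the difference between LPS+XJDHT and LPS. The 95% interval was -0.27 to 0.40 for Nfkbia, -0.12 to 0.44 for Nfkb2, -0.34 to 0.38 for Rel and -0.47 to 0.44 for Nfkb1. It was -0.39 to 0.52 for Tnip1 and -0.50 to 0.46 for Tnfaip3, so that no bound for these 6 genes was larger than 0.52 in size. The intervals were wider for Nfkbiz, at -0.77 to 0.79, for Nfkbie, at -0.80 to 0.77, and for Relb, at -0.87 to 2.44. A p above the threshold does not show that the groups were alike. The LPS+XJDHT files list another set of transcripts than those of the other 2 groups, and this difference in processing cannot be told apart from the treatment.

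At the transcript level 0 of 19 forms passed the test for LPS+XJDHT against LPS (smallest limma adjusted p = 0.880), where 0.0107% of all transcripts rose and 0.0858% fell. Unadjusted p was below 0.05 for 2 of them, against 4.89% of all transcripts. These were Rela-201, the single listed form of Rela, and Nfkb1-204. Nfkb1-204, a retained-intron form, was 1.29, 1.85, 1.97 and 1.32 FPKM in LPS+XJDHT 1 to 4 and 1.19, 0.782, 0.271 and 0.287 FPKM in LPS 1 to 4. The difference was 0.70 ± 0.22 on the log2 scale, with an adjusted p of 0.880 by limma.

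Set against Control, LPS+XJDHT shares its reference libraries with the LPS comparison, so its values are given beside those and are not independent of them. Of the 10 genes 7 rose and 0 fell, with 28.5% rising and 10.7% falling among all genes. For 7 genes all LPS+XJDHT libraries lay above all Controls, as did 30.2% of all genes, and the median fold change was 1.56 against 0.19 over all genes. With median-ratio scaling the split over all genes went from 3278 higher and 1234 lower to 1967 and 2044. The fold changes were 3.30 for Nfkbiz, 3.07 for Relb, 2.76 for Tnfaip3, 2.03 for Tnip1, 1.77 for Nfkbia, 1.36 for Nfkb2 and 0.84 for Rel, each with a limma adjusted p of 0.0075 or less. For Relb the fold change was 2.02 with every listed transcript, below that of Tnfaip3, since Control 1, 2 and 3 are then no longer at 0. At the transcript level 12 of 19 forms rose and 0 fell against Control, with 18.6% rising and 7.35% falling among all transcripts. The limits of the filter given for LPS against Control hold for these genes and forms too. The call for Relb as a gene was lost with limma-voom (adjusted p = 0.245) and kept in the other 20 alternatives, where the adjusted p was 0.00015 to 0.0224. Rela differed from Control by 0.09 ± 0.13 (limma adjusted p = 0.628), a sign that turned to -0.13 under median-ratio scaling. Nfkb1 differed by 0.26 ± 0.21 (limma adjusted p = 0.350) and Nfkbie by 0.52 ± 0.36 (limma adjusted p = 0.278).

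**Figure D4:**
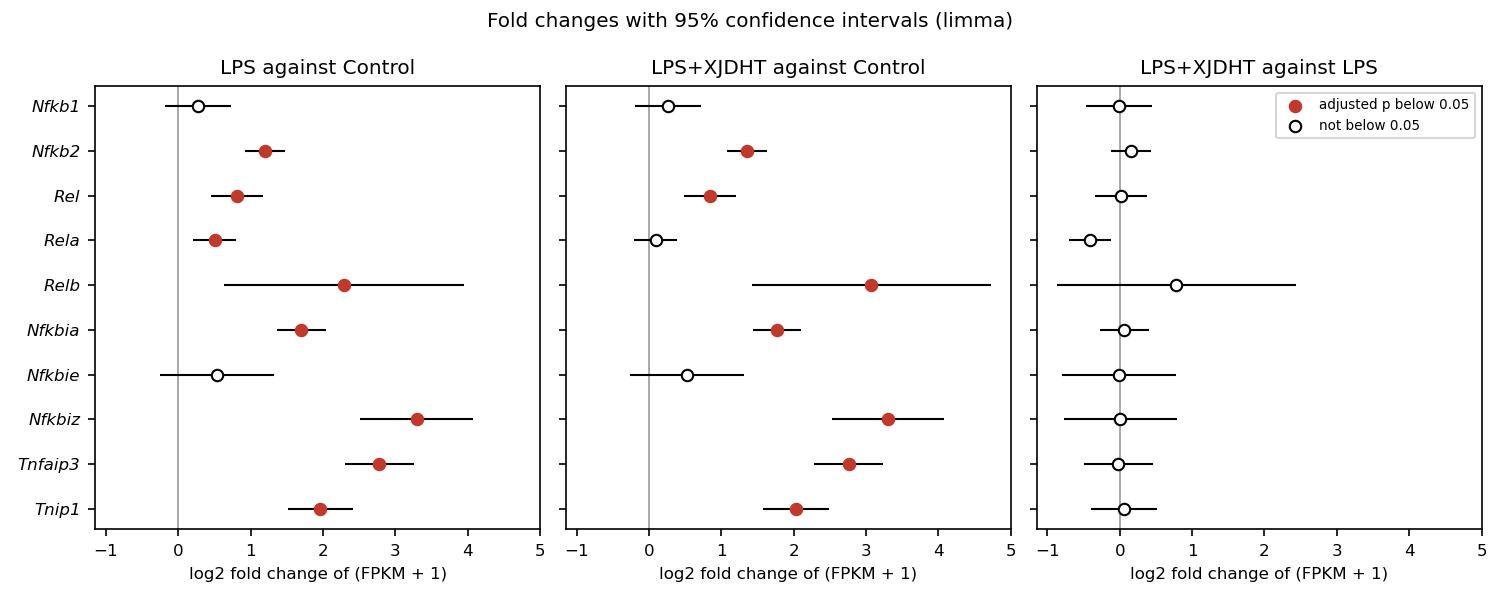
Log2 fold changes of (FPKM + 1) with 95% confidence intervals from limma (horizontal axes) for the 10 genes in the 3 comparisons, with filled points for adjusted p below 0.05. In the left panel 8 points are filled and in the middle panel 7, the right panel has none, and Rela is the gene there whose interval, -0.71 to -0.12, lies off 0.

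The rest of the pathway was described from 5 lists of genes set by textbook role, chosen with earlier results of these data known. Of the I-kB kinase complex and activating kinases, 3 of 10 tested genes rose after LPS and 0 fell, with a median of 0.14 against 0.16 over all genes. Over all genes tested, 26.6% rose and 12% fell. The counts of rising kinases, adaptors and non-canonical inputs were near that 26.6% and do not set these lists apart. Ikbke, with a Control mean of 0.352 FPKM, reached the filter only with the groups given LPS. Ikbke, an I-kB kinase that is itself inducible, rose most, from 0.352 ± 0.137 FPKM in Control to 4.96 ± 0.861 in LPS (SD, n = 4), a fold change of 2.13 ± 0.15 (limma adjusted p = 2.2e-06). Map3k8, the kinase Tpl2 that is bound by p105, rose by 1.12 ± 0.13 and Ikbkb, the catalytic kinase of the canonical pathway, by 0.56 ± 0.15. Chuk and Ikbkg, the other core subunits of the complex, had fold changes of 0.15 ± 0.15 and -0.15 ± 0.18 and did not pass.

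Against a share of 26.6% rising over all genes, 4 of the 16 tested adaptors and ubiquitin ligases rose and 0 fell (median 0.32). They were Cul1 and Rbx1, parts of the ligase that marks I-kB alpha for degradation, at 0.83 ± 0.16 and 0.29 ± 0.08, Ripk1, a kinase of the tumour necrosis factor receptor complex, at 1.12 ± 0.25, and Sharpin, of the linear ubiquitin ligase, at 0.57 ± 0.13. Among other I-kB proteins and negative regulators, 6 of 15 tested genes rose and 2 fell (median 0.56), against 26.6% and 12% over all genes. Zc3h12a, an RNase that degrades cytokine mRNAs, rose from 1.94 ± 0.524 to 15.3 ± 6.08 FPKM (SD, n = 4), by 2.40 ± 0.25 on the log2 scale (limma adjusted p = 2.7e-05). Nfkbib, which encodes I-kB beta, rose by 1.18 ± 0.14, and Tax1bp1 and Rnf11, both partners of A20, went in opposite directions, at 0.69 ± 0.08 and -0.39 ± 0.08. The other gene that fell was Pdlim2, at -0.88 ± 0.23.

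Of the textbook NF-kB target genes, 23 of 31 tested rose after LPS and 0 fell, with a median of 1.54. Over all genes 26.6% rose and 12% fell, with a median of 0.16. Control means were below 1 FPKM for Sele, Csf3, Cxcl1, Cxcl2, Cxcl5, Ccl5, Il6, Tnf, Mmp9, Ptgs2, Stx11, Cd40, Bcl2a1b and Bcl2a1d. These genes all rose but reached the filter only with the groups given LPS, so the count is a description. Icam1, an adhesion molecule of activated endothelium, was 70.1 ± 9.14 FPKM in LPS and 6.84 ± 0.431 in Control (SD, n = 4). Sele, the endothelial selectin, was 8.28 ± 0.713 FPKM in LPS (SD, n = 4) and at or near 0 in Control. In LPS+XJDHT against Control 23 of the list rose and 2 fell, where 28.5% of all genes rose and 10.7% fell. The 2 were Irf1 by -1.69 ± 0.45 (limma adjusted p = 0.0117) and Sod2 by -1.84 ± 0.53 (limma adjusted p = 0.0175). Sod2 was 31.5 ± 26.5 FPKM in LPS+XJDHT and 81.5 ± 3.93 in Control, and Irf1 2.05 ± 1.51 and 8.07 ± 1.57 (SD, n = 4). The LPS+XJDHT libraries were thus widely spread, and their files list another set of transcripts. In LPS, Sod2 was 63.5 ± 4.86 FPKM and Irf1 4.69 ± 3.38 (SD, n = 4). Both means lay below Control, but neither gene passed for LPS against Control (limma adjusted p = 0.632 and 0.150). All 3 groups share 1 estimate of the spread, so that of LPS+XJDHT enters this test of Sod2 too. Of the inputs to the non-canonical pathway, 2 of 10 tested genes rose after LPS and 0 fell (median 0.17), no more than the 26.6% over all genes. They were Ltbr, the lymphotoxin receptor, by 1.12 ± 0.13, and Cd40 by 0.73 ± 0.16. Map3k14, the kinase NIK of that pathway, was 0.963 ± 0.164 FPKM in Control and 0.949 ± 0.104 in LPS (SD, n = 4). In LPS+XJDHT against LPS 0 genes of any of the 5 lists passed the test, where 0% of all genes rose and 0.113% fell.

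**Figure D5:**
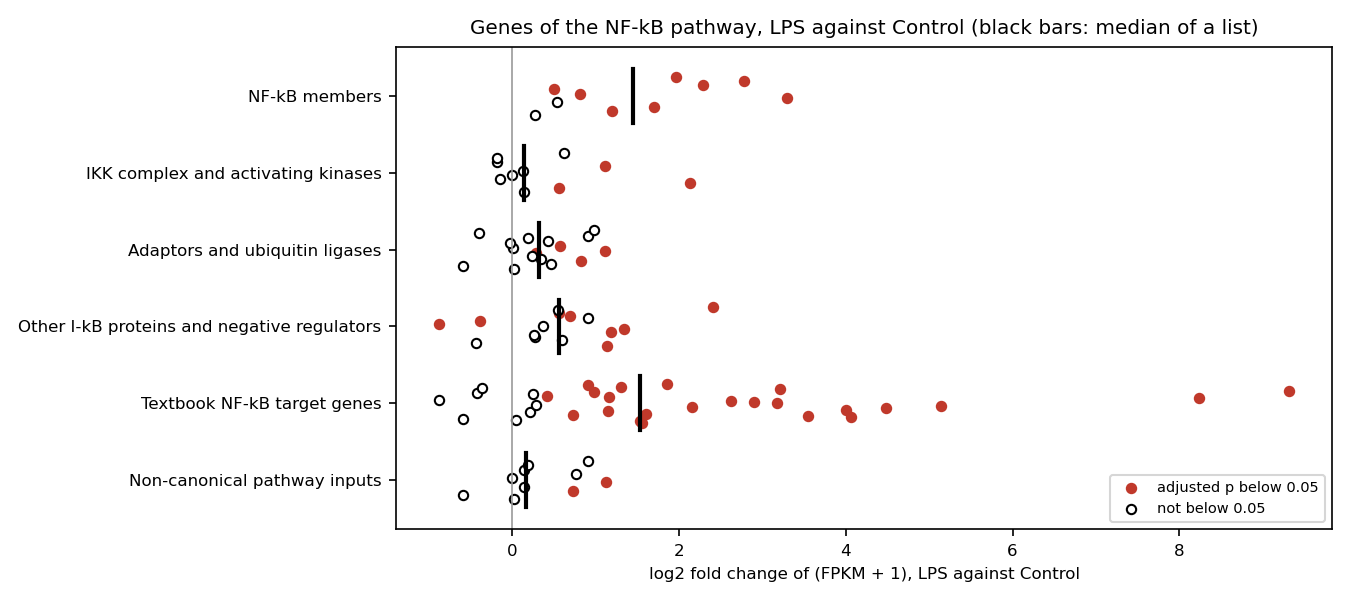
Log2 fold changes of (FPKM + 1) for LPS against Control (horizontal axis) of the 10 NF-kB genes and of 5 lists of pathway genes, 1 point per gene, with filled points for limma adjusted p below 0.05 and black bars for the median of a list. The medians of the 10 genes and of the target genes, 1.45 and 1.54, lie to the right of the kinases, adaptors and non-canonical inputs, at 0.14, 0.32 and 0.17.

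These are bulk libraries, in which more cells of a type and more RNA per cell cannot be told apart. The hearts were checked by marker lists. The summed cardiomyocyte markers were 10403 to 11369.5 FPKM in Control, 5776 to 7155 in LPS and 5051 to 6667 in LPS+XJDHT. The 8 neutrophil markers with a value, of 10, summed to 1.25 to 2.73 FPKM in Control, 80.0 to 118 in LPS and 75.6 to 153 in LPS+XJDHT, with Camp at 0 in every Control library and Ly6g and Cxcr2 without a value. The macrophage and monocyte sum was 155 to 236 FPKM in Control, 98.9 to 265 in LPS and 103 to 201 in LPS+XJDHT. The endothelial sum was 149 to 181, 155 to 218 and 176 to 212 FPKM, and the fibroblast sum 418 to 515, 735 to 882 and 610 to 976 FPKM. None of the 12 markers of T, B and NK cells had a value. The sums are carried by their most abundant genes. In the macrophage and monocyte list 5 of 11 tested genes rose after LPS and 0 fell, with a median of 0.79. Those that rose were Cd14, Cd68, Chil3, Fcgr1 and Plac8. Other genes of the list had lower means without passing. Lyz2 went from a mean of 140.7 to 70.3 FPKM (limma adjusted p = 0.0610) and Csf1r from 12.3 to 8.26 FPKM (limma adjusted p = 0.0518). In the fibroblast list 3 of 7 rose, among them Dcn from a mean of 304 to 651 FPKM, and 1, Dpt, fell. All 5 tested neutrophil markers, of the 8 with a value, rose and 3 of 7 cardiomyocyte markers fell. S100a8, Ngp, Mmp8 and Retnlg had Control means of 0.517, 0.0782, 0.0625 and 0.106 FPKM. These neutrophil markers reached the filter only with the groups given LPS, so their rise is no separate evidence. The same holds for Chil3, Fcgr1 and Plac8, with Control means of 0.101, 0.730 and 0.363 FPKM. Over all genes tested, 26.6% rose and 12% fell. As a description only, neutrophil markers and some macrophage, monocyte and fibroblast markers stood higher after LPS, and Dpt and some cardiomyocyte markers fell. The macrophage and monocyte, fibroblast and cardiomyocyte lists also held tested genes that did not pass. Of the 8 neutrophil markers with a value, only 5 were tested, so the lack of such genes there does not set neutrophils apart. In LPS+XJDHT against Control, 4 of the 11 tested macrophage and monocyte genes rose and 2, Csf1r and Lyz2, fell. Among all genes tested, 28.5% rose and 10.7% fell in that comparison. The part of the cells of the marker lists in the rise of the NF-kB genes was not tested.

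Within the LPS group, LPS 1 and LPS 3 stood at the ends of the range for many of the genes. LPS 1 was the highest library for 8 of the 10 genes, all but Nfkbie and Nfkbiz. LPS 3 was the lowest for Rel, Relb, Nfkbia, Nfkbiz and Tnip1. LPS 3 also had the highest macrophage and monocyte sum of the group, 265 FPKM, and the lowest neutrophil sum, 80.0 FPKM, and the part of these cells in its rank was not tested. Across the 8 libraries given LPS the 45 pairs of genes had a median Pearson correlation of 0.17, from -0.68 for Nfkbie with Nfkbiz to 0.92 for Nfkbia with Nfkbiz, and 32 pairs were above 0.

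The genes most like Nfkbia and Tnfaip3 over those 8 libraries were looked up among 6125 genes with a mean of at least 5 FPKM. For Nfkbia they were H3f3b (r = 0.974), Tmcc3 (0.971), Poldip3 (0.966), Gab2 (0.959) and Srsf6 (0.955). For Tnfaip3 they were Dctn1 (r = 0.962), Pnrc1 (0.943), Gas5 (0.934), Vrk3 (0.926) and Akt1s1 (0.917). With 8 points and so many genes searched, and with library and depth shared by the points, these are a description only.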

How the data were processed

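Total RNA of mouse hearts, depleted of ribosomal RNA per the labels' protocols, was sequenced in 12 libraries, and groups were taken from the labels. The authors deposited a number for each transcript in each library, scaled before deposit, without naming its unit. These deposited values were taken as FPKM because multiplying by transcript length gave whole fragments, up to a factor per library and within 0.1, for 98.3% to 98.7% of values. The submitters' processing notes name mm10 and limma but no role for either; which aligner and counting tool were used is not given in the sources used here. Control and LPS files list 36293 transcripts and LPS+XJDHT files 35802. The 24723 listed in all 12 files and annotated in GENCODE M21 (GRCm38) were summed to gene FPKM, and 10120 listed transcripts without an Ensembl identifier were left out. Genes reaching 1 FPKM in 4 or more libraries were fitted as log2(FPKM + 1) with limma 3.58.1 in R 4.3.3 (intensity trend, 1 mean per group, two-sided, Benjamini-Hochberg below 0.05), and transcripts likewise. The fit was tested on simulated data. Tables were made with pandas 2.3.3 and NumPy 2.4.6 in Python 3.11.15, figures with matplotlib 3.10.9. Alternatives were other filters, pseudocounts, transcript sums, median-ratio scaling, the compared groups alone, limma-voom on recovered fragments and leaving out each library. Named genes are the 10 members, up to 4 genes each way with the smallest adjusted p from each pathway list, chosen core genes Chuk, Ikbkg and Map3k14 added after their values were seen, and the 5 genes most like Nfkbia and Tnfaip3. The members and lists were chosen with earlier results of these data known.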

Additional observations from a re-analysis of the deposited data

Results flagged for a closer look

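Relb in Control 4 stood apart from its group: it was 2.60 FPKM, where the other 3 Control libraries were listed at 0. The gap took up the whole range of the group, above Dixon's 95% critical value for 4 libraries. Of 30 combinations of gene and group examined, this was the single one, and chance alone marks about 1 group in 20. With Relb-202 counted, which is listed for Control and LPS alone, the 4 Control libraries were 0.714, 2.08, 2.47 and 2.60 FPKM, and Control 4 was no longer apart.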

How the results depend on the processing

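The number of the 10 genes called was 7 to 8 for LPS against Control and 6 to 7 for LPS+XJDHT against Control over the alternatives that kept all libraries, and 7 to 8 and 7 when each library was left out in turn. It was 0 for LPS+XJDHT against LPS in all of them. Of the transcripts, 11 to 14 were called for LPS against Control and 12 to 13 for LPS+XJDHT against Control with each library left out, and 7 and 6 with a limit of 5 FPKM, which tests fewer transcripts. The changes of call concern Relb, Rela and Nfkb1 and are given with these genes, besides Rel, which the limit of 5 FPKM leaves untested. Signs turned only for differences that did not pass the test. With limma-voom, LPS+XJDHT against LPS became 0.13 for Tnfaip3, 0.0471 for Nfkb1 and 0.00041 for Nfkbie, and with median-ratio scaling -0.0149 for Rel and -0.0380 for Nfkbiz, as did Rela against Control, at -0.13. Leaving out 1 library gave, for LPS+XJDHT against LPS, -0.13 to 1.20 for Relb, -0.15 to 0.18 for Tnfaip3, -0.0873 to 0.15 for Rel, -0.0808 to 0.19 for Tnip1, -0.0564 to 0.18 for Nfkbia, -0.30 to 0.25 for Nfkbie, -0.24 to 0.13 for Nfkb1 and -0.20 to 0.15 for Nfkbiz. Why these differences moved was not tested. No paired analysis was possible because the labels give the groups no shared replicate numbers. Depth limits the low values, with 25 fragments for Tnfaip3 in Control 4 and 30.2 for Nfkbie in LPS 2. The files give estimated levels per transcript, so an exact 0 may be a failed estimate, and the 4 libraries per group bound the size of difference that can be seen.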
